A study of Rattus norvegicus with 17 samples.

Results

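Gfap, Vim, Nes and Synm encode 4 intermediate filament proteins of astrocytes and of the cells astrocytes arise from. They were taken by symbol from the gene column of the deposited expression table, and all 4 were found among its 11247 genes. By mean value over the libraries, Gfap ranked 43, Vim 277, Nes 1519 and Synm 4879 in the table. These values are not scaled to transcript length, so levels are compared between groups for 1 gene and not between genes.

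Intermediate filaments are rope-like polymers of the cytoskeleton that give a cell mechanical strength. Vimentin (Vim) makes up most of the filament network of radial glia and immature astrocytes, and glial fibrillary acidic protein (Gfap) becomes its main component as astrocytes mature. Nestin (Nes), a marker of neural progenitors, and synemin (Synm), a large filament protein, do not polymerise alone and join filaments built by partners such as vimentin. Astrocytes that become reactive after injury commonly make more of these proteins.

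The libraries came from primary cells of rat cerebral cortex, labelled as glutamatergic neurons together with astrocytes. Cultures had received either an empty vector or α-synuclein with the A53T change, a mutant of the presynaptic protein whose aggregates mark Parkinson's disease. Each kind of culture received the solvent DMSO alone, FK506 at 0.2 µM (the low dose, below saturation per the labels) or FK506 at 2.0 µM (the high, saturating dose). FK506 (tacrolimus) bound to an FKBP protein blocks calcineurin, a phosphatase that calcium switches on and that is best known for activating NFAT transcription factors. The 6 groups held 3 libraries each, except A53T with DMSO, which held 2. The controls had thus also been through gene transfer and solvent. The promoter of the vectors, the cells they reached, the age of the cultures and the time under FK506 are not given in the labels.

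The normalized counts of a library summed to between 15091428 and 18335540, and raw depth is unknown. With the normalized values taken as counts, differences among the 3 libraries of A53T at the low dose were 0.995 to 1.05 times what Poisson sampling gives. Between libraries of any other group they were 1.48 to 14.5 times that. The mean of the 3 libraries of A53T at the low dose was used as a single sample, so that 15 samples entered the tests. The labels do not say whether libraries of 1 group stem from different cultures, and the p-values then reflect the spread between these libraries alone, which may be technical. Replicate 1 of vector at the low dose, replicate 2 of vector at the high dose and replicate 1 of A53T at the high dose stood apart from their own groups. Without these 3 libraries, none of the calls on the 4 genes given below was lost. Of the marker lists, 19 of 20 astrocyte genes and 18 of 19 neuronal genes were in the table, against 1 of 13 microglial genes (Cd68). Within the list of fibroblast and vascular markers, 7 of 16 were present, with Col1a1 between 1.0 and 31.6 normalized counts.

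Every comparison below was made with limma on log2(value + 1), and "rose", "fell", "higher" and "lower" as calls refer to an adjusted p under 0.05 over all 11247 genes. The comparisons with the same DMSO group share its libraries. In vector cultures, 4 of the 4 filament genes passed at the low dose, where 18.3% of all genes did, and 3 of 4 passed at the high dose, where 47.2% did. The doses differed from each other for 2 of 4 in vector cultures, beside 33.7% of all genes. In A53T cultures, 3 of 4 passed at the low dose beside 67.8% of all genes, and 2 of 4 at the high dose beside 37.6%. High against low dose gave 4 of 4 there, beside 77.3%. A53T against vector gave 2 of 4 in DMSO (14.0% of all genes), 4 of 4 at the low dose (68.9%) and 3 of 4 at the high dose (19.6%). The difference between A53T and vector in the response to FK506, tested as an interaction, passed for 2 of 4 at the low dose (47.3%) and for 3 of 4 at the high dose (14.6%). Wherever A53T at the low dose entered, the share of all genes was 47.3% or more, so a count of 2 to 4 of the 4 genes is near the background there.

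**Figure D1:**
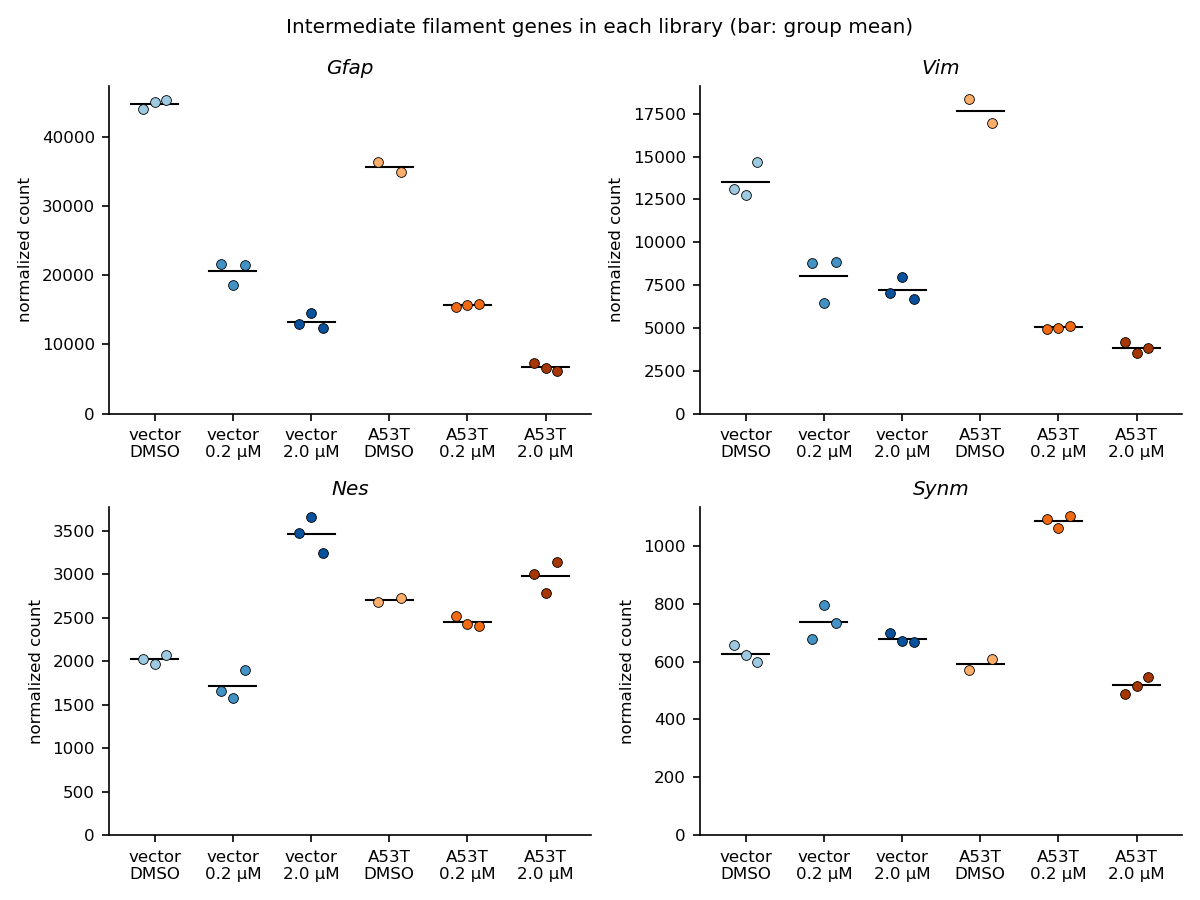
Normalized counts (linear axis from 0) of Gfap, Vim, Nes and Synm in each of the 17 libraries, by group; points are libraries and bars are group means. Gfap and Vim stepped down with FK506 in both kinds of culture, Nes was highest in vector at 2.0 µM, and Synm was highest in A53T at 0.2 µM.

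Gfap, the filament protein of mature astrocytes, fell at both doses of FK506 in both kinds of culture, and fell further at the high dose. In vector cultures, the normalized count was 44127, 45115 and 45477 with DMSO, 18576, 21571 and 21672 at the low dose, and 12389, 12955 and 14585 at the high dose. In A53T cultures it was 34947 and 36398 with DMSO, 15438, 15764 and 15830 at the low dose, and 6176, 6555 and 7320 at the high dose. No library of any group reached into the range of another group, and A53T stood below vector under each treatment. The group means were 44906 ± 699 (SD, n = 3), 20606 ± 1759 (n = 3) and 13310 ± 1140 (n = 3) in vector, and 35673 ± 1026 (n = 2) and 6684 ± 583 (n = 3) in A53T with DMSO and at the high dose. The highest of the 6 group means was 6.72-fold above the lowest. In a bulk sample, fewer astrocytes and less Gfap RNA per astrocyte cannot be told apart, and the same holds for each value below.

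At the low dose, the log2 fold change of Gfap against DMSO was -1.13 ± 0.08 (SE) in vector (adjusted p = 1.8e-05) and -1.19 ± 0.12 in A53T (adjusted p = 1.5e-05). The mean was then 45.9% and 43.9% of the respective DMSO mean. The interaction at this dose was -0.06 with a 95% interval from -0.38 to 0.26 (adjusted p = 0.760), so differences in response within that interval were not resolved. At the high dose the change was -1.76 ± 0.08 in vector (adjusted p = 2.5e-08) and -2.42 ± 0.09 in A53T (adjusted p = 1.9e-08), which left 29.6% and 18.7% of the DMSO means. Gfap thus fell more in A53T than in vector cultures at the high dose, with an interaction of -0.66 ± 0.12 (adjusted p = 0.00475). By size of change, Gfap was 32nd of 11247 genes in A53T at the high dose and 181st in vector. At the low dose it was 168th in vector but 2758th in A53T. For the high-dose interaction its rank was 2203, and for high against low dose in A53T it was 3647. From low to high dose, Gfap fell further in vector (log2 change -0.63 ± 0.08, adjusted p = 1.2e-04) and in A53T (-1.23 ± 0.12, adjusted p = 4.2e-06).

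A53T itself went with less Gfap. With DMSO the difference from vector was -0.33 ± 0.09 (adjusted p = 0.0302), at the low dose -0.39 ± 0.12 (adjusted p = 0.00979) and at the high dose -0.99 ± 0.08 (adjusted p = 1.0e-05). The call with DMSO was lost when any 1 of the 5 libraries compared was left out, with the adjusted p reaching 0.193, while the fold change stayed between -0.36 and -0.30 over the 17 leave-outs.

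Vim, the filament protein shared by immature astrocytes, radial glia and mesenchymal cells, also fell at both doses in both kinds of culture. In vector cultures its normalized count was 12744, 13126 and 14701 with DMSO, 6433, 8774 and 8841 at the low dose, and 6711, 7018 and 7951 at the high dose. In A53T cultures it was 16972 and 18377 with DMSO, 4931, 5015 and 5132 at the low dose, and 3543, 3796 and 4153 at the high dose. In vector cultures the ranges at the low and high dose overlapped, while in A53T cultures all 3 treatments were separate. The A53T libraries had the highest Vim values with DMSO and the lowest under either dose. The vector means were 13524 ± 1037 (SD, n = 3), 8016 ± 1371 (n = 3) and 7226 ± 646 (n = 3), and those of A53T with DMSO and at the high dose 17674 ± 994 (n = 2) and 3830 ± 306 (n = 3).

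In vector cultures, Vim changed by -0.77 ± 0.12 at the low dose (adjusted p = 0.00119) and by -0.91 ± 0.12 at the high dose (adjusted p = 4.0e-05), to 59.3% and 53.4% of the DMSO mean. The doses differed by -0.14, with a 95% interval from -0.39 to 0.11 (adjusted p = 0.379). Over the leave-outs this value ran from -0.29 to -0.06, and without replicate 2 of vector at the low dose it passed (-0.29 ± 0.09, adjusted p = 0.0397). In A53T cultures it changed by -1.81 ± 0.17 at the low dose (adjusted p = 8.3e-06) and by -2.21 ± 0.13 at the high dose (adjusted p = 8.0e-07), to 28.4% and 21.7% of the DMSO mean. The response was larger in A53T at each dose: the interaction was -1.05 ± 0.21 at the low dose (adjusted p = 0.00342) and -1.30 ± 0.17 at the high dose (adjusted p = 7.2e-04). The low-dose interaction rests on a group of 1 sample. By size of that interaction Vim was 2332nd of 11247 genes, against 583rd at the high dose. Against vector, A53T had a Vim difference of 0.39 ± 0.13 with DMSO (adjusted p = 0.0660), -0.66 ± 0.16 at the low dose (adjusted p = 0.00352) and -0.91 ± 0.12 at the high dose (adjusted p = 2.5e-04). The further step from low to high dose in A53T, -0.39 ± 0.16 (adjusted p = 0.0422), lost its call in 7 of 17 leave-outs, at adjusted p up to 0.0966.

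Gfap and Vim are the 2 members that fell most, and the 200 bases that end 51 bases before their RefSeq transcription starts are shown for that reason, 5′ to 3′ on the strand of the gene. They come from RefSeq's rat assembly GRCr8, a later build than rn6, which the submitters' processing notes name. Capitals mark 3 motifs: GGAAA, the core letters of NFAT sites, the CCAAT box and the TATAAA box. Both strands were searched, and a match on the other strand appears as its reverse complement.
Gfap, chr10:88361712-88361911, minus strand: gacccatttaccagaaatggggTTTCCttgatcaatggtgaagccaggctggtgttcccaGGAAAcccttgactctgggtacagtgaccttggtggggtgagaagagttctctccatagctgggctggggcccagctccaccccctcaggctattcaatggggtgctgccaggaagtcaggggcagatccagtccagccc
Vim, chr17:81577011-81577210, plus strand: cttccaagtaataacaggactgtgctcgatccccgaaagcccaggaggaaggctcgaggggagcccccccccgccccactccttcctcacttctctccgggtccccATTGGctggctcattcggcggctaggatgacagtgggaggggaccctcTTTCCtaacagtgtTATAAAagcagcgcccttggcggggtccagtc
The Gfap window held 2 GGAAA matches and the Vim window 1, and 49.6% of 33469 RefSeq promoter windows of this length held at least 1, 16.7% at least 2. The window of Synm held 2 and that of Nes none. Both of these windows lie within the annotated gene, because the start used is not its outer end. The windows of Gfap and Vim lie outside their genes. The Vim window also held 1 CCAAT, found in 28.8% of windows, and 1 TATAAA, found in 9.98%. Neither TTCNNNGAA, the STAT motif (6.29% of windows), nor TGANTCA, the AP-1 motif (5.22%), matched in any of the 4 windows. These are matches of letters in a short window and say nothing of whether a factor was bound.

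Nes, the progenitor filament gene, went the other way at the high dose in vector cultures. Its normalized count there was 3241, 3473 and 3664, against 1968, 2027 and 2067 with DMSO and 1578, 1654 and 1897 at the low dose. In A53T cultures it was 2684 and 2731 with DMSO, 2404, 2432 and 2523 at the low dose, and 2790, 3008 and 3146 at the high dose. The ranges of the 6 groups did not overlap, and the order of the means ran from vector at the low dose to vector at the high dose, 2.02-fold apart. All A53T groups lay between those 2 vector groups.

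In vector cultures Nes rose by 0.77 ± 0.07 at the high dose (adjusted p = 3.1e-06), to 171% of the DMSO mean, and stood 1.02 ± 0.07 above the low dose (adjusted p = 2.4e-06). At the low dose it changed by -0.25 ± 0.07 (adjusted p = 0.0355), a call lost in 8 of 17 leave-outs, at adjusted p up to 0.145. In A53T cultures the change at the high dose was 0.14, with a 95% interval from -0.04 to 0.31 (adjusted p = 0.189). The interaction at the high dose was -0.64 ± 0.11 (adjusted p = 0.00303), so the response of Nes differed between the cultures there. At the low dose the A53T change was -0.14 ± 0.11 (adjusted p = 0.259) and the interaction 0.10 ± 0.13 (adjusted p = 0.527).

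A53T went with more Nes where FK506 was absent or low. The difference from vector was 0.42 ± 0.08 with DMSO (adjusted p = 0.00486) and 0.53 ± 0.10 at the low dose (adjusted p = 7.6e-04). With either of the 2 A53T libraries with DMSO left out, the adjusted p of the former was 0.0505 and 0.0528. At the high dose the difference was -0.21 ± 0.07 (adjusted p = 0.0555), and it passed without replicate 2 or 3 of vector at the low dose or replicate 3 of A53T at the high dose. Within A53T, Nes was 0.28 ± 0.10 higher at the high than at the low dose (adjusted p = 0.0243), a call lost without replicate 3 of A53T at the high dose (adjusted p = 0.0577).

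Synm, which ties filaments to adhesion and dystrophin-type complexes, moved least among the vector groups. Its normalized count was 597, 622 and 657 with DMSO, 680, 733 and 796 at the low dose, and 668, 671 and 697 at the high dose. In A53T cultures it was 572 and 608 with DMSO, 1061, 1095 and 1102 at the low dose, and 489, 517 and 547 at the high dose. The vector and A53T groups with DMSO overlapped, as did vector at the low and high dose, while A53T at the low dose stood above every other group.

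In A53T cultures, Synm rose by 0.88 ± 0.11 at the low dose (adjusted p = 4.8e-05), to 184% of the DMSO mean, and was lower at the high than at the low dose (-1.07 ± 0.10, adjusted p = 5.0e-06). The rise rests on the 3 libraries counted as 1 sample, and Synm was 4290th of 11247 genes by size of change in that comparison. In vector cultures the change was 0.23 ± 0.07 at the low dose (adjusted p = 0.0436) and 0.12 ± 0.07 at the high dose (adjusted p = 0.203). The former call was lost in 11 of 17 leave-outs, at adjusted p up to 0.175. The interaction at the low dose was 0.65 ± 0.13 (adjusted p = 0.00367), and at the high dose -0.31 ± 0.11 (adjusted p = 0.0764), which passed without replicate 3 of A53T at the high dose (adjusted p = 0.0455). At the high dose A53T stood below vector (-0.39 ± 0.07, adjusted p = 0.00329), at the low dose above it (0.56 ± 0.10, adjusted p = 5.1e-04), and with DMSO the difference was -0.08 ± 0.08 (adjusted p = 0.535). In A53T the high dose differed from DMSO by -0.19 ± 0.08 (adjusted p = 0.0823).

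**Figure D2:**
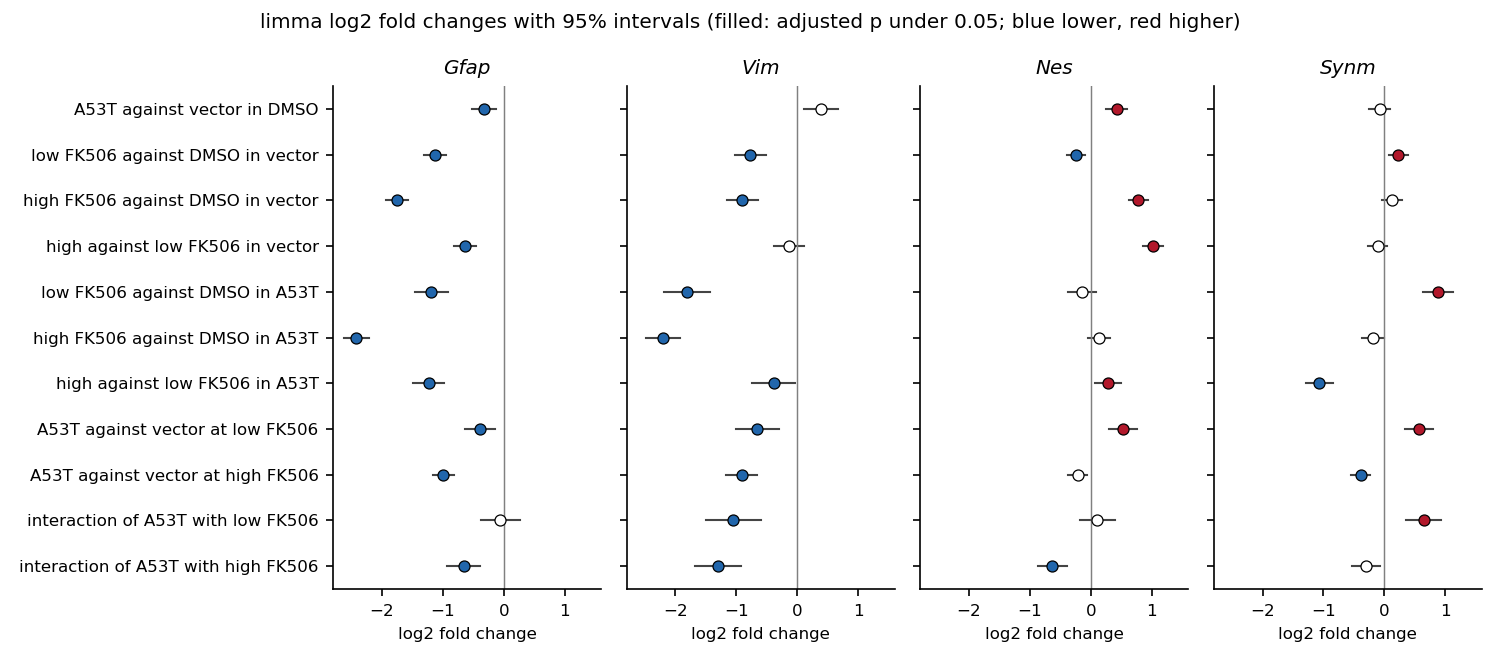
Log2 fold changes of the 4 genes in the 11 comparisons (points, with 95% intervals from limma); filled points passed at adjusted p under 0.05, blue for lower and red for higher. Gfap and Vim lie left of 0 in every comparison of FK506 with DMSO, Nes lies right of 0 at 0.77 for the high dose in vector, and Synm lies right of 0 at 0.88 for the low dose in A53T.

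The balance of the 4 genes within a library changed with dose. The ratio of Nes to Gfap normalized counts ran from 0.0436 to 0.0459 in vector with DMSO, from 0.0763 to 0.0880 at the low dose and from 0.251 to 0.268 at the high dose. In A53T it ran from 0.0737 to 0.0781 with DMSO, from 0.152 to 0.163 at the low dose and from 0.411 to 0.509 at the high dose. The ranges rose with dose in both kinds of culture without overlap between treatments, and the size of the ratio itself also depends on transcript lengths. On the log2 scale the vector means moved by 0.88 at the low dose and 2.53 at the high dose. The log2 ratio of Gfap to Vim moved by -0.36 and -0.85 in vector, so that Gfap lost ground to Vim too. In A53T cultures that ratio was 1.01 with DMSO, 1.64 at the low dose and 0.80 at the high dose, and did not run in one direction with dose. The log2 ratio of Synm to Vim moved by 1.0 and 1.02 in vector, and that of Nes to Vim by 0.52 and 1.68. Each of these 8 vector differences had an exact two-sided permutation p of 0.1 (adjusted 0.1 over the 8), which is the smallest that this test can give for 3 libraries against 3, so it cannot reach 0.05.

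**Figure D3:**
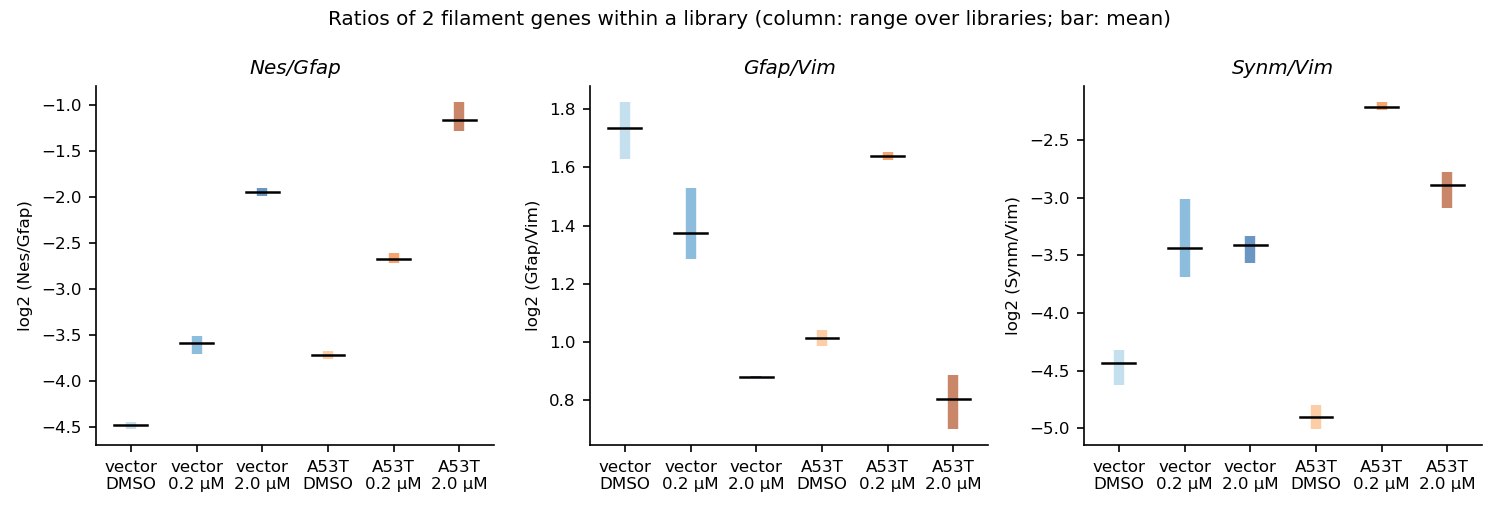
Log2 ratios of Nes to Gfap, Gfap to Vim and Synm to Vim within a library, by group; columns span the libraries of a group and bars are group means. The mean log2 Nes to Gfap ratio climbs from -4.47 to -1.94 over the vector groups and from -3.72 to -1.16 over the A53T groups.

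Other astrocyte genes fell with Gfap in vector cultures. Of 19 astrocyte markers, 0 rose and 7 fell at the low dose in vector, and 2 rose and 14 fell at the high dose. Of all genes, 18.3% and 47.2% were called in these comparisons. The median log2 changes of the list were -0.27 and -0.67, beside 0.00 for all genes. At the high dose in vector, 4 that fell were the acyl-CoA synthetase Acsbg1 (-1.14), the mitochondrial glutamate carrier Slc25a18 (-2.02), the membrane protein Mlc1 (-0.65) and the glutamate transporter Slc1a3 (-0.92), as log2 changes. In A53T at the high dose, 5 rose and 7 fell, with a median of -0.17, beside 37.6% of all genes called. Set against vector at the high dose, A53T had 10 of the 19 higher and 1 lower, beside 19.6% of all genes called. Acsbg1 was higher by 1.05 and the gap junction gene Gja1 by 0.84. Gfap and Vim were lower in that comparison, in the other direction from those 10. The summed level of the list was 99067 to 100140 in vector with DMSO, 78762 to 84699 at the low dose, 58291 to 60401 at the high dose, and 80291 to 82786 in A53T at the high dose.

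Relative to the mean log2 level of these 19 markers in the same library, Gfap lay 4.63 above in vector with DMSO, 3.70 at the low dose and 3.53 at the high dose. In A53T it lay 4.39, 3.02 and 2.15 above. At the low dose in A53T, a group of 1 sample, the log2 changes of Slc1a2 (4.22) and Slc4a4 (4.05) raised the marker mean. The median change of the 19 markers there was -0.21. Vim went from 2.89 to 2.33 and 2.65 in vector and from 3.38 to 1.38 and 1.35 in A53T. The part of the number of astrocytes in the loss of Gfap and Vim was not tested. On this scale the libraries under FK506 lay below those of their own DMSO group without overlap, except for Vim in vector at the high dose (2.53 to 2.86, against 2.82 to 3.02 with DMSO). Nes stood at 0.15, 0.11 and 1.59 in vector and at 0.67, 0.35 and 0.99 in A53T, so its highest place on this scale was again vector at the high dose.

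Under FK506, falls outnumbered rises among genes linked to reactive astrocytes. Of 24 measured, 0 rose and 11 fell at the low dose in vector, and 3 rose and 7 fell at the high dose. In A53T at the high dose 2 rose and 15 fell. The medians in these 3 comparisons were -0.49, -0.17 and -0.84, beside 0.00, 0.00 and 0.01 for all genes. Of all genes, 18.3%, 47.2% and 37.6% were called in them, so the count at the high dose in vector is near the background. Ceruloplasmin (Cp), a copper-carrying ferroxidase, fell in all 3, by log2 changes of -1.07, -1.49 and -2.55. In A53T at the high dose the complement inhibitor Serping1 (-1.57), the sphingosine phosphate receptor S1pr3 (-2.10) and the metalloproteinase inhibitor Timp1 (-2.24) fell as well. These genes also fell at the low dose in vector (-0.53, -0.72 and -0.92). At the high dose A53T stood below vector for 13 of the 24 and above it for 0, beside 19.6% of all genes called. With DMSO, 1 of the 24, Cp, was higher in A53T (0.57 ± 0.13) and 0 were lower. Of all genes, 14.0% were called there, so this count does not set the list apart.

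Other progenitor markers did not rise with Nes. Of 8 progenitor markers in the table, 0 rose and 4 fell at the high dose in vector, where Nes rose. Of all genes, 47.2% were called there, so the count called is near the background. Among the 4 were the Notch target Hes1 (-1.09 ± 0.11) and the radial glial fatty acid binding protein Fabp7 (-0.27 ± 0.09). The summed level of the 8 was 9734 to 10329 in vector with DMSO, 7959 to 8130 at the high dose, 10806 to 11318 in A53T with DMSO and 5489 to 5617 at the high dose. Most of that sum is Fabp7, which ran from 3245 to 9037 over the libraries and changed by -1.34 in A53T at the high dose. There 1 of the 8 rose and 2 fell, with a median of -0.23, beside 37.6% of all genes called. The cell cycle genes Mki67 and Top2a were not in the table. Of the 7 fibroblast and vascular markers, 1 rose and 3 fell at the high dose in vector, with a median of -0.57. Their summed level was 1686 to 1900 with DMSO and 5867 to 7260 at the high dose. That sum mostly follows Tagln, which ran from 770 to 6809 over the libraries, while Dcn, the next highest, reached 893. The 1 that rose was Tagln, an actin-binding protein of smooth muscle that many other cells make too (2.82 ± 0.17), while the collagen-associated genes Lum and Dcn fell (-2.38 and -1.10). Cd68, a lysosomal protein of phagocytes, was at 151 to 191 in vector with DMSO, 616 to 667 at the high dose and 646 to 754 in A53T at the high dose. Of 8 oligodendrocyte lineage markers in the table, 1 rose and 3 fell at the high dose in vector, and 4 rose and 2 fell in A53T. At this dose 47.2% of all genes were called in vector and 37.6% in A53T. The fibroblast and oligodendrocyte counts in vector are thus near the background. The part of other cell types in the values of Vim and Nes was not tested.

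Neurofilament genes also fell in vector cultures, and some of them in A53T. Of 10 other intermediate filament genes in the table, 1 rose and 5 fell at the low dose in vector, and 3 rose and 6 fell at the high dose. In A53T at the high dose 1 rose and 4 fell. The medians were -0.23, -0.30 and -0.20. Of all genes, 18.3%, 47.2% and 37.6% were called in these comparisons, so the A53T count is near the background. The heavy neurofilament chain Nefh fell in vector at the low and high dose (-0.96 and -1.71) and in A53T at the high dose (-1.03). At the high dose the light chain Nefl fell in vector and A53T (-0.87 and -0.90), and so did α-internexin, Ina (-0.29 and -0.32). The medium chain Nefm fell in vector at the high dose (-0.32) but rose in A53T (0.32), with an interaction of 0.63 ± 0.07 (adjusted p = 2.6e-04). In A53T at the low dose, a group of 1 sample, the changes were -0.99 for Nefh, -0.07 for Nefl, -0.13 for Nefm and -0.06 for Ina. With DMSO, A53T had less Nefh (-0.99 ± 0.11) and more peripherin, Prph (0.94 ± 0.29), than vector. Of 18 neuronal markers, 9 fell at the high dose in vector and 7 in A53T, and 0 rose in either, beside 47.2% and 37.6% of all genes called.

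**Figure D4:**
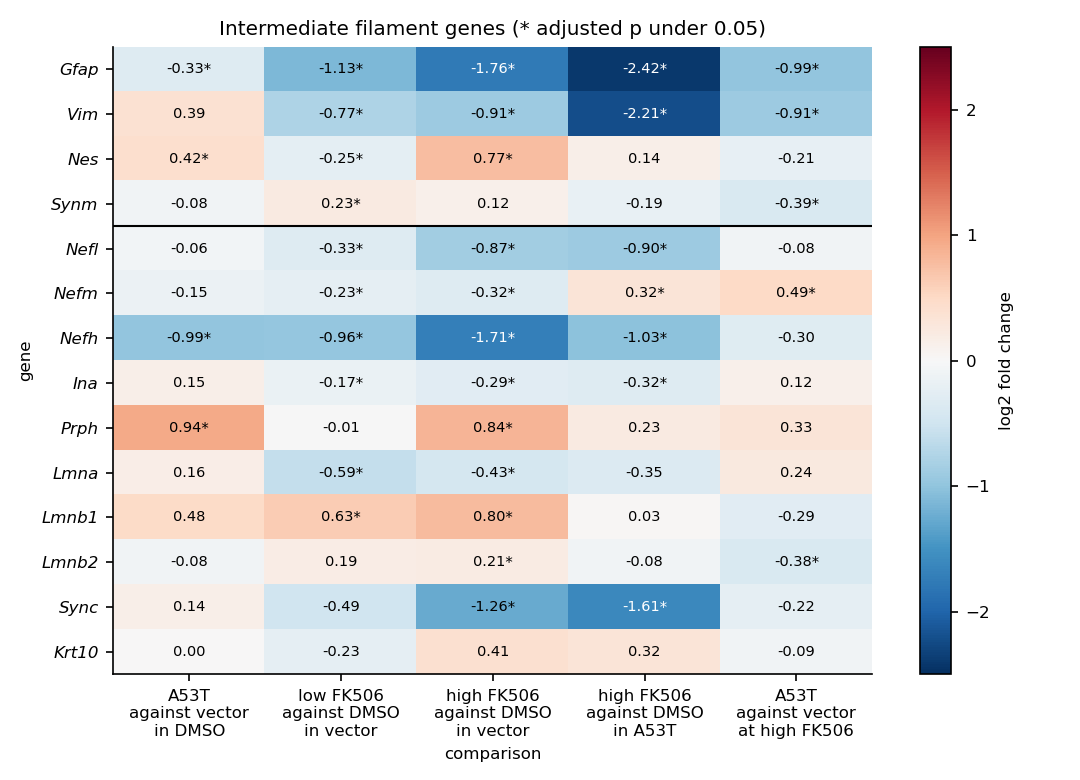
Log2 fold changes of the 4 genes (above the line) and of the 10 other intermediate filament genes in 5 comparisons, as colours from blue (lower) to red (higher) with the value printed in each cell; a star marks an adjusted p under 0.05. Gfap, Vim and Nefh are blue in each of the 3 comparisons of FK506 with DMSO, and Nes is red in vector at the high dose.

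Filament linkers differed between the cultures at the high dose. Of 10 linkers, which join filaments to actin, junctions or membranes, 4 rose and 1 fell at the high dose in vector, and 0 rose and 7 fell in A53T, with medians of 0.29 and -0.35. Of all genes, 47.2% and 37.6% were called in these comparisons, so the vector count is near the background. The interaction at the high dose passed for 3 of the 10 linkers, each lower in A53T, beside 14.6% of all genes called. Set directly against vector at the high dose, A53T had 0 of the 10 higher and 7 lower, beside 19.6% of all genes called. Filamin A (Flna), an actin crosslinker that binds vimentin, rose by 1.24 ± 0.07 in vector and fell by 0.60 in A53T, with an interaction of -1.83 ± 0.10 (adjusted p = 9.8e-07). Talin (Tln1), the integrin activator, rose by 1.29 in vector, and its interaction was -1.07 ± 0.14. Plectin (Plec), the linker best known for binding vimentin and Gfap filaments, fell by 0.77 in both. In A53T at the low dose, where 67.8% of all genes were called and the group is 1 sample, 8 of the 10 rose and 1 fell, with Macf1, a very large crosslinker of microtubules and actin, up by 2.08 and dystrophin (Dmd) by 2.31. The summed level of the linkers was 36394 to 36808 in that group and 13954 to 19170 over all other libraries.

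Of the 7 genes for filament chaperones and turnover, Cryab, the small heat shock protein αB-crystallin that binds Gfap and vimentin filaments, rose by 2.67 ± 0.19 in vector and 1.73 ± 0.21 in A53T at the high dose. Its normalized count ran from 395 to 3441 over the libraries. Hspb1, the related chaperone, fell in vector at the low dose (-1.36) and in A53T at the high dose (-1.61), but was not called lower in vector at the high dose. Its change in A53T at the low dose, a group of 1 sample, was -1.79. The calcium-dependent protease Capn2 fell at the high dose in vector and A53T (-0.29 and -0.20).

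Of 29 genes of pathways known to control Gfap, Vim or Nes, 4 rose and 3 fell at the low dose in vector, 6 rose and 7 fell at the high dose, and 0 rose and 9 fell at the high dose in A53T, with medians of 0.16, 0.10 and -0.28. Beside 18.3%, 47.2% and 37.6% of all genes, these counts called do not set the list apart. Stat3, the factor through which gp130 cytokines switch on Gfap, was higher in A53T than in vector with DMSO (0.51 ± 0.08) and fell in A53T at the high dose (-0.45 ± 0.08). Its feedback inhibitor Socs3 fell in A53T at the high dose (-1.20), and so did Id3, a target of bone morphogenetic proteins (-2.89 ± 0.30). In vector cultures Id3 fell at the low dose (-1.28), and Hes1 at the low and high dose (-1.0 and -1.09). Smad1, which carries the bone morphogenetic protein signal, rose by 0.83 in vector at the high dose, and Wwtr1, the TAZ coactivator of the Hippo pathway, by 1.94. In A53T at the low dose 18 of the 29 rose and 3 fell, in the comparison where 67.8% of all genes were called, and the summed level was 32039 to 32353 against 14762 to 19268 over all other libraries.

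Profiles over the 15 samples were compared as the root mean square difference of log2 values, each gene centred on its own mean. The 5 nearest were picked among the other genes whose symbols matched RefSeq's table. For Gfap the nearest were the annexin Anxa1 (0.279), Fam107a (0.286), the G protein regulator Rgs2 (0.298), the choline dehydrogenase Chdh (0.311) and the claudin Cldn19 (0.325). Gfap's own spread around its mean was 0.970 on this scale, so these genes followed most but not all of its profile. Vim was nearest to Timp1 (0.148), Anxa1 (0.219), the complement gene C2 (0.236), Serping1 (0.265) and the galectin Lgals3 (0.301), with a spread of its own of 0.751. Anxa1 was among the 5 nearest of both. For Nes they were Srxn1 (0.120), Mdm2 (0.121), Tmem43 (0.137), Clk1 (0.144) and Tmem39a (0.150), with an own spread of 0.378. Srxn1 is a target of the oxidative stress factor Nrf2, and Mdm2 is the p53 inhibitor. For Synm they were the transporter Abcc5 (0.082), the kinesin Kif3c (0.084), Zfp532 (0.096), Gbf1 (0.097) and Taf2 (0.098), with an own spread of 0.268. Gfap and Vim differed by 0.371, and 12 genes were nearer to Gfap than Vim was. Gfap and Nes differed by 1.215, and 9357 genes were nearer to Gfap than Nes was. Both counts run over all genes, with or without a matched symbol, and include Gfap itself. The nearest genes were picked for their likeness, so no test is given.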

How the data were processed

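Messenger RNA was measured in 17 libraries made with a stranded mRNA kit, per the labels' protocols. The submitters' processing notes list FastQC, TopHat, HTSeq and rn6, a rat genome build, without versions or roles. The deposited table holds gene counts that the authors normalized by a method that no source used here gives, and it was treated as a signal rather than as counts. Of 11247 gene symbols, 10458 matched a symbol in RefSeq's table for GRCr8, which was used for names and promoter sequences.

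A single limma model (version 3.58.1 under R 4.3.3, with trend=TRUE) on log2(value + 1) held the mean of each group over 15 samples, with 9 residual degrees of freedom and 11 contrasts. Genes needed a mean of at least 1, which removed none. P-values were adjusted by Benjamini-Hochberg over all genes within a contrast, with a threshold of 0.05. Fold changes on this scale understate those of low genes. A53T at the low dose entered as 1 sample, and its variance is taken to be that of the remaining groups. One column of A53T with DMSO is numbered 3 while its title says 2, so that library was used without a number.

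The 4 genes, the gene lists and the tests were chosen with earlier results of these data known. The rule for naming takes the 4 genes, at most 4 genes of each list per comparison by smallest p, and the 5 nearest profiles. The lists overlap in part (Sox9, Sox2, Hes1, Hspb1), and they are described by counts and medians. The fit was tested on simulated data. Alternatives were pseudocounts of 0.25 and 4, other filters, median scaling, quantile normalization, no trend, only the groups compared, all 17 libraries, replicate blocks, and each library left out; a pseudocount of 1 in the ratios was added after seeing the data. Some results for single genes are left out of the text.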

Additional observations from a re-analysis of the deposited data

Results flagged for a closer look

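In 5 cases the response to FK506 differed between A53T and vector cultures by the interaction term (limma, log2 scale, Benjamini-Hochberg over all genes). Vim differed by -1.05 ± 0.21 (SE) at the low dose (adjusted p = 0.00342) and by -1.30 ± 0.17 at the high dose (adjusted p = 7.2e-04), with a larger fall in A53T each time. Synm differed by 0.65 ± 0.13 at the low dose (adjusted p = 0.00367), where it rose more in A53T. Gfap differed by -0.66 ± 0.12 at the high dose (adjusted p = 0.00475), with a larger fall in A53T. Nes differed by -0.64 ± 0.11 at the high dose (adjusted p = 0.00303), where it rose in vector and its change in A53T did not pass. The low-dose values rest on A53T at the low dose, a group of 1 sample. Groups of 3 or fewer libraries were not tested for an outlying library gene by gene.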

How the results depend on the processing

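Of 44 results (4 genes in 11 comparisons), 30 kept their call under each of the 29 alternatives. Among them were the falls of Gfap and Vim against DMSO at both doses in both cultures. The rise of Nes at the high dose in vector was another. For A53T at the low dose, the leave-outs do not test the single sample. Its 3 libraries barely differ, and the mean of the rest took its place. The sign turned once: the Gfap interaction at the low dose, -0.06, was 0.06 under quantile normalization. That scaling moved the median of all genes by -0.20 for the low dose against DMSO in A53T, 0.25 for high against low dose in A53T, -0.22 for A53T against vector at the low dose and -0.20 for the interaction at the low dose. In the last of these, 35.9% of the calls were higher, against 46.8% without it. The Vim difference between A53T and vector with DMSO passed in 6 of the 29.

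Of the 4 genes, 4 passed at the low dose in vector and 4 for high against low dose in A53T, and with only the groups compared 2 did in each. With 1 library left out, both counts ran from 2 to 4. The former was 2 without any 1 of the vector libraries with DMSO, replicate 2 of vector at the low dose, replicate 1 of vector at the high dose or either A53T library with DMSO, and the latter was 2 without replicate 3 of A53T at the high dose. For A53T against vector with DMSO the count was 2, and it ran from 0 (without either A53T library) to 3. The causes were not tested.

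Replicate numbers did not pair the samples: 9 of 35 same-numbered pairs of libraries had deviations correlated above 0.1 (range -0.51 to 0.67), and no 2 groups compared had all of 3 same-numbered pairs above it. Vector at the low dose and A53T at the high dose, which are not compared, did (0.669, 0.217 and 0.463). The tally includes A53T at the low dose, whose libraries differ by about what Poisson sampling gives if the values are taken as counts. With a replicate block by title numbers, 0 of the 4 genes passed for A53T against vector with DMSO and 2 at the low dose in vector, and the Gfap interaction at the high dose had an adjusted p of 0.0646. With a replicate block by column numbers, 1 passed for A53T against vector with DMSO.

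The count of all genes called moved by over 1.5 times in several comparisons. For A53T against vector with DMSO it was 1579, then 4174 with only the groups compared, 331 with the replicate block by title numbers, 4390 without the 3 libraries that stand apart, and as low as 413 without replicate 1 of A53T with DMSO. For the low dose in vector it was 2056, then 1307 with that block, 5897 without those 3 libraries and as low as 980 without replicate 3 of vector at the low dose. For the high dose in A53T it was 4233, then 1786 with only the groups compared, 1574 with that block and as low as 1837 without the unnumbered library of A53T with DMSO. For A53T against vector at the high dose it was 2202, then 688 with only the groups compared. The interaction gave 5321 at the low dose and 1641 at the high dose, then 1721 and 378 with that block, and the latter was as low as 632 without the unnumbered library of A53T with DMSO. Raw depth is unknown, so counting error cannot be given.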
